A study of Homo sapiens with 6 samples.

Results

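The P2Y receptors are the G protein-coupled receptors that sense nucleotides outside the cell, and the human genome holds 8 of them: P2RY1, P2RY2, P2RY4, P2RY6, P2RY11, P2RY12, P2RY13 and P2RY14. Here they were followed in RH36, a cell line of embryonal rhabdomyosarcoma, a childhood tumor that resembles immature skeletal muscle. The line is negative for the PAX3/FOXO1 translocation. RH36 cells received a precursor of the microRNA miR-27a (pre-miR-27a, 3 arrays) or a negative control precursor (pre-control, 3 arrays), and both groups are the same cell line with no other genotype or agent named in the labels. The labels give 10 nM of precursor, harvest 48 hours after transfection for the pre-miR-27a arrays, and biological replicates 1 to 3 in each group, without saying whether these are separate cultures, so the spread between arrays may be partly technical. The study's methods give another dose and time, and which applies to these arrays was not settled.

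All probes whose gene name in the array files is 1 of the 8 receptors were taken. They were 9 of the 41000 probes on the array, 1 for each receptor and a second for P2RY13, and 8 of its 30484 gene names. The family was selected on the comparison of pre-miR-27a with pre-control arrays, in which P2RY1 had a large rise, so the members' signals, their differences and their detection are a description and carry no test. All 9 probes passed the filter that removes probes found on too few arrays. Of all 36469 probes that passed, 2856 (7.83%) had an adjusted p under 0.05 in either direction (limma with Benjamini-Hochberg adjustment) and 1440 (3.95%) were called higher in pre-miR-27a cells. Among the 9 receptor probes 1 was called, and it was P2RY1.

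P2Y receptors divide by ligand and by G protein. P2RY1, P2RY12 and P2RY13 answer ADP, P2RY2 answers ATP and UTP, P2RY4 answers mainly UTP, P2RY6 UDP, P2RY11 ATP, and P2RY14 UDP-glucose. P2RY1, P2RY2, P2RY4, P2RY6 and P2RY11 couple to Gq, which activates phospholipase C and releases calcium through IP3 receptors. P2RY12, P2RY13 and P2RY14 couple to Gi, which lowers cyclic AMP, and P2RY11 also raises it. Muscle cells release ATP, and enzymes on the cell surface convert it to ADP, AMP and adenosine. P2RY1 is known at the neuromuscular junction, and P2RY12 is best known from platelets and microglia.

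A microRNA lowers its targets mainly by pairing of its seed, bases 2 to 8, with sites in their messages. The mature sequences below show the seed that the precursor brings into the cells and that the paralog miR-27b carries too. They are credited to RefSeq (GRCh38.p14), where miR-27a-3p lies at chr19:13836447-13836467 on the minus strand and miR-27b-3p at chr9:95085505-95085525 on the plus strand. Capitals mark the seed.
hsa-miR-27a-3p: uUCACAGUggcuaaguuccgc
hsa-miR-27b-3p: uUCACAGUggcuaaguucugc

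Each array was scanned in 1 color (Cy3), and its scanner software marks a spot as well above background or not. All 3 pre-control arrays shared 1 slide and 1 scan and all 3 pre-miR-27a arrays shared another, so the slide and the transfection cannot be told apart. The slides differed in brightness. Over 43376 spots an array, 69.9% to 73.9% were well above background on the pre-control arrays and 74.1% to 78.0% on the pre-miR-27a arrays, and local background had medians of 74.5 to 76 and 52.5 to 53 intensity units on the first and second slide. The number of arrays, 3 a group, limits the precision of every value below.

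P2RY1, P2RY4 and P2RY11 were well above background on all 6 arrays, which makes 3 of the 9 probes, against 68.0% of all probes on the array. P2RY12 was well above background on 1 array, pre-miR-27a replicate 2, though its signal was higher on pre-control replicates 1 and 2. The other 5 probes, those of P2RY2, P2RY6, P2RY13 and P2RY14, were well above background on none, against 20.3% of all probes. In all, 19 of the 54 receptor spots were well above background, and in 22 the software had replaced the signal with a substitute value because it could not be told from background. None was saturated (0 spots), none was marked as an outlier (0 spots), and 2 were not found by the spot finder.

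**Figure D1:**
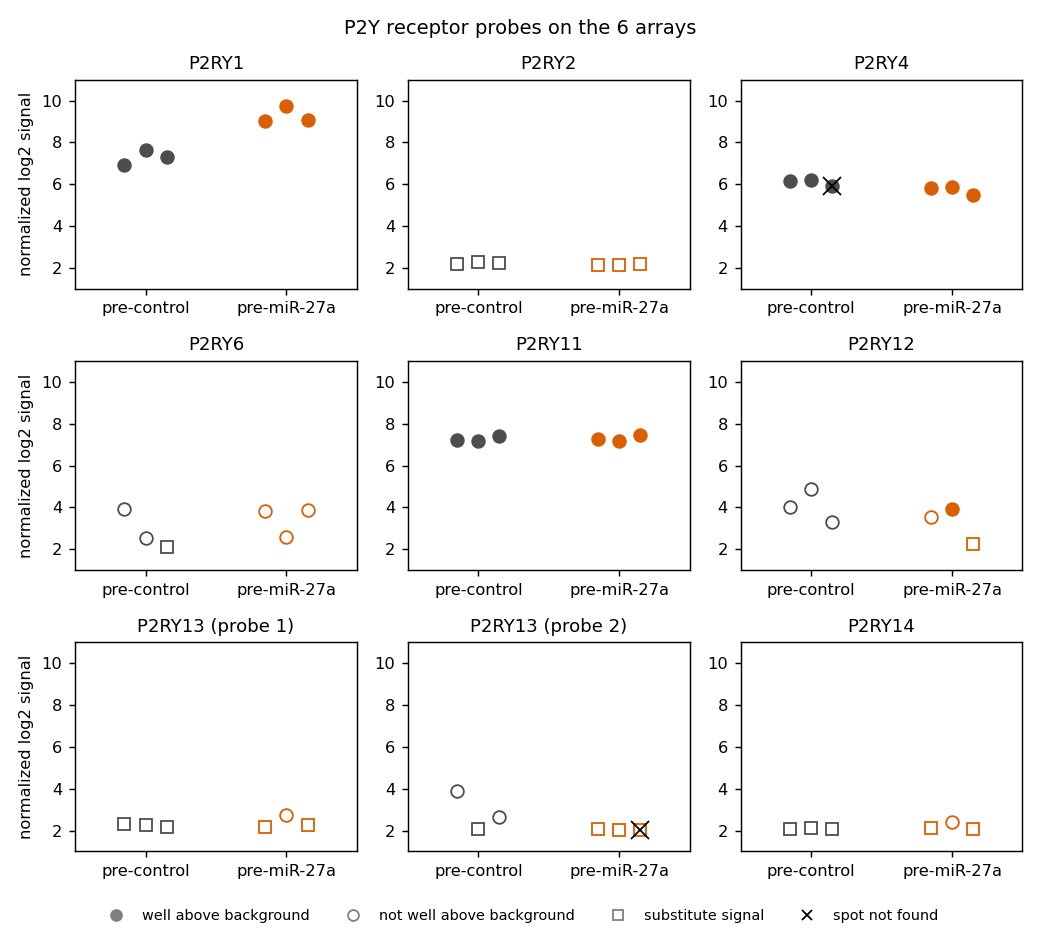
Normalized log2 signal (y axis) of each P2Y receptor probe on the 3 pre-control and 3 pre-miR-27a arrays (x axis), 1 point an array, filled where the spot was well above background, open where not, square for a substitute signal and crossed where the spot was not found. The 3 pre-miR-27a values of P2RY1 lie at 9.05 to 9.75 above its pre-control values of 6.94 to 7.65, P2RY11 is level, P2RY4 is lower in pre-miR-27a cells, and the other probes sit at the dim end. Heights are not comparable between probes.

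P2RY1 is the ADP receptor that couples to Gq. Its probe (NM_002563) lies at chr3:154038428-154038487 on the plus strand (hg18, as the files give it). Its normalized log2 signal was 6.94, 7.65 and 7.30 on pre-control replicates 1, 2 and 3, and 9.05, 9.75 and 9.09 on pre-miR-27a replicates 1, 2 and 3. The groups did not overlap, and replicate 2 was the brightest of each group. The means were 7.30 ± 0.35 (SD, n = 3) and 9.29 ± 0.39 (SD, n = 3), a difference of 2.00 on the log2 scale (SE 0.26, 95% interval 1.34 to 2.65), or 3.99-fold. Taken by replicate number, the differences were 2.11, 2.10 and 1.79. Of the 27057 probes that were kept and were well above background on all 6 arrays, 2 rose further, and of all 36469 probes kept, 44 did.

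The P2RY1 difference was present at each stage of the scanner's measurement. The mean spot signal before any correction was 300.1, 341 and 337 intensity units on pre-control arrays and 518, 789.8 and 498 on pre-miR-27a arrays, a ratio of group means of 1.85. The local background around the spot was 85, 79 and 78 against 51.5, 48 and 58 units, so the spot stood 3.53, 4.32 and 4.32 times above its surroundings in pre-control cells and 10.1, 16.5 and 8.59 times in pre-miR-27a cells. The processed signal, after the software's background subtraction, was 138, 186 and 174 units against 525, 847 and 509.6 units, with a scanner error of 10.0% to 11.6% of the signal on each array.

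In these uncorrected signals P2RY1 ran against its array. The median probe gave a raw ratio of pre-miR-27a to pre-control of 0.669, and 8.02% of the 41000 probes were brighter in pre-miR-27a cells before correction. The other 8 receptor probes had raw ratios of 0.381 to 0.678. A larger raw ratio than that of P2RY1 was found for 55 probes on the array. These ratios come from the arrays and the contrast by which P2RY1 was selected, so its rank is a description.

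**Figure D2:**
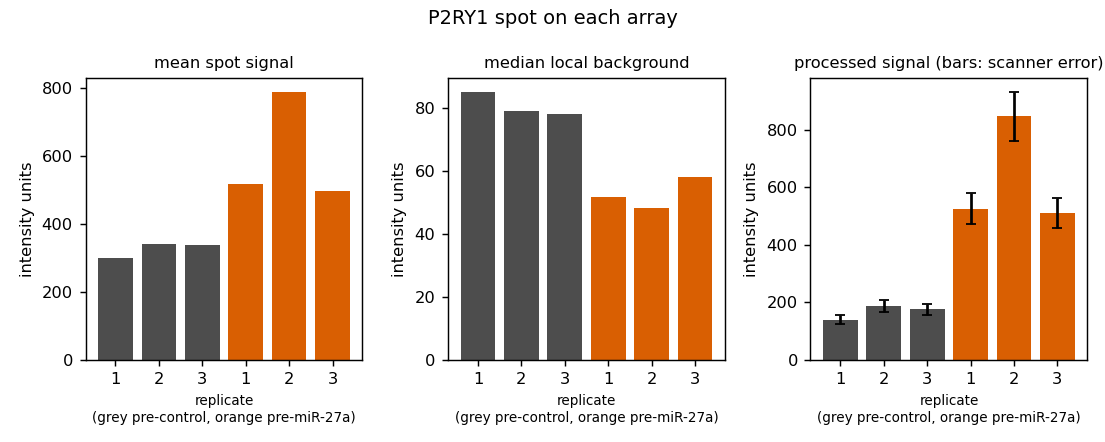
The P2RY1 spot on each array in intensity units (y axes), with the replicates of each group on the x axes: mean spot signal, median local background, and processed signal with the scanner's own error as bars. The spot was brighter on each pre-miR-27a array (498 to 789.8 units) than on each pre-control array (300.1 to 341 units), while the background around it was lower.

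P2RY12 and P2RY13 are the Gi-coupled ADP receptors and were at or near background. The P2RY12 probe (NM_022788, chr3:152538424-152538483, minus strand, hg18) gave normalized log2 signals of 4.0, 4.87 and 3.30 on pre-control arrays and 3.56, 3.93 and 2.25 on pre-miR-27a arrays. The groups overlapped. The difference was −0.81 (SE 0.57), and the 1 array on which the spot was well above background had a processed signal of 13.9 units. Because 5 of the 6 spots were not well above background, no fold is given. P2RY13 has probes at chr3:152528446-152528505 and chr3:152527495-152527554 (NM_023914, minus strand, hg18), with 5 and 4 substitute signals of 6. The first ranged from 2.15 to 2.74 and the second from 2.01 to 3.87 over all 6 arrays, and neither separated the groups.

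P2RY2 and P2RY4 are the receptors for UTP. P2RY4 (NM_002565, chrX:69395641-69395700, minus strand, hg18) had normalized log2 signals of 6.16 and 6.22 on pre-control replicates 1 and 2 and 5.80, 5.86 and 5.48 on pre-miR-27a replicates 1, 2 and 3. The spot on pre-control replicate 3 was well above background but was not found by the spot finder, so it was left out of the comparison. Its value there was 5.91, which also lies above all 3 pre-miR-27a values. The means were 6.19 ± 0.04 (SD, n = 2) and 5.71 ± 0.21 (SD, n = 3), a difference of −0.48 (SE 0.15, 95% interval −0.87 to −0.09). The groups did not overlap, and the probe was not called. Processed signals were 81.3, 68.6 and 69.4 units against 54.1, 53.0 and 40.6 units. P2RY2 (NM_176072, chr11:72624564-72624623, plus strand, hg18) had a substitute signal on all 6 arrays, with values of 2.14 to 2.26.

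P2RY4 was the lower of the receptor probes whose groups did not overlap, and P2RY1 the higher. They make 2 of the 9 receptor probes, against 32.5% of all probes kept. Of the 9 differences 5 were above 0 and 4 below, with a median of 0.03, beside a median of −0.02 over all probes kept. The signs of P2RY6, of the first P2RY13 probe and of P2RY14, all dim, changed under other scaling or background correction.

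P2RY11, the ATP receptor, was measured on every array and did not separate the groups. Its probe (NM_002566, chr19:10086130-10086189, plus strand, hg18) gave normalized log2 signals of 7.25, 7.18 and 7.40 on pre-control arrays and 7.28, 7.18 and 7.45 on pre-miR-27a arrays. Each group's values fell within or next to those of the other. The means were 7.28 ± 0.11 (SD, n = 3) and 7.30 ± 0.14 (SD, n = 3), and the difference was 0.03 (SE 0.11, 95% interval −0.24 to 0.30). The files list the same probe for the read-through transcript that joins P2RY11 to the gene before it, PPAN, so the receptor's own message and the read-through cannot be separated. The brighter PPAN probe differed by −0.25 (SE 0.08, limma adjusted p = 0.111) and the dimmer by −0.30 (SE 0.09, limma adjusted p = 0.122).

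P2RY6, the UDP receptor, and P2RY14, the UDP-glucose receptor, were well above background on no array. The P2RY6 probe (NM_176798, chr11:72686273-72686332, plus strand, hg18) gave 3.91, 2.53 and 2.13 on pre-control arrays and 3.83, 2.57 and 3.87 on pre-miR-27a arrays. These values overlapped. P2RY14 (NM_014879, chr3:152412749-152412808, minus strand, hg18) had 5 substitute signals of 6 and ranged from 2.08 to 2.39. By a weaker flag, positive and significant against background, the P2RY6 spot passed on 5 of 6 arrays, with 1 substitute signal, and the P2RY14 spot on 1. For these receptors no level well above background was measured, and a difference was not detectable at this signal.

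The 3 receptors measured on every array kept their order under other processing. Over the 8 alternatives that used all 6 arrays the P2RY1 difference lay between 1.44, with a model-based background correction, and 2.02. P2RY4 lay between −0.48 and −0.26 and P2RY11 between 0.02 and 0.03. Leaving out 1 array at a time gave 1.76 to 2.17 for P2RY1, −0.55 to −0.36 for P2RY4 and −0.04 to 0.09 for P2RY11. P2RY1 stayed among the called probes without pre-control replicate 1. Without any other single array limma called 0 probes of the whole array, with 7395 to 8544 at an unadjusted p under 0.05.

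**Figure D3:**
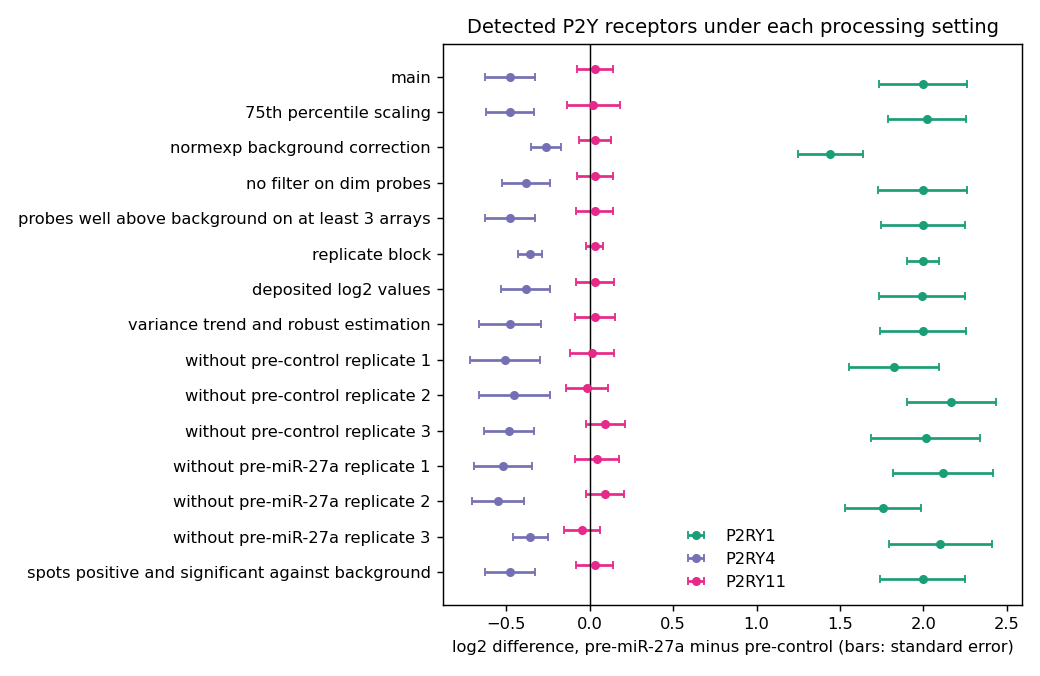
Log2 difference between pre-miR-27a and pre-control arrays (x axis) for the 3 receptors well above background on every array, under each processing setting (y axis), with the standard error as bars. P2RY1 stayed at 1.44 or higher, P2RY4 stayed below 0 and P2RY11 stayed near 0 in all settings drawn.

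The receptor genes lie in 2 clusters and apart from these. The probes of P2RY14, P2RY13 and P2RY12 lie within 126 kb of chromosome 3, and the P2RY1 probe lies 1500 kb further along the same chromosome. The probes of P2RY2 and P2RY6 lie 62 kb apart on chromosome 11. The genes around the receptors were described by each gene's brightest probe. Of 18 neighbouring genes 15 had a probe kept, and 12 were well above background on all 6 arrays. Past the test 0 rose and 1 fell (6.67%), near the 7.83% of all probes kept. An unadjusted p under 0.05 was reached by 5, and the median difference was −0.02.

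The neighbour that fell was ANGPTL6, an angiopoietin-like secreted protein gene near P2RY11. Its normalized log2 signal was 7.55, 7.61 and 7.51 on pre-control arrays and 6.85, 6.44 and 6.69 on pre-miR-27a arrays, with no overlap. The difference was −0.90 (SE 0.12, limma adjusted p = 0.0210). Next to P2RY1, and named for that position, the small GTPase gene RAP2B differed by −0.46 (SE 0.22, limma adjusted p = 0.261), the splicing factor gene MBNL1 by 0.16 (SE 0.09, limma adjusted p = 0.317) and the exchange factor gene ARHGEF26 by 0.13 (SE 0.27, limma adjusted p = 0.814). None of these 3 passed the test, though a dimmer MBNL1 probe was called higher by 0.76 (limma adjusted p = 0.0353).

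The other genes of purinergic signalling were taken from 8 lists. Of 93 genes 84 had a probe kept, 59 were well above background on all 6 arrays and 12 on none. Taking each gene's brightest probe, 0 rose and 1 fell past the test in limma (1.19%), against 7.83% of all probes kept. Of these genes 19 had an unadjusted p under 0.05, and the median difference was −0.01. Many probes of the whole array reach that unadjusted level. With 1 array left out they were 7395 of 37937 (without pre-miR-27a replicate 1) to 8730 of 37032 (without pre-control replicate 1). The share on all 6 arrays was not counted, so nothing is read from the unadjusted counts of the lists, neighbours or markers. Of the 84 differences 39 lay above 0 and 45 below. These totals include 1 probe, counted as ALPL, that probably measures another gene.

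Among the genes that make, move or remove the ligands, the gene that fell was SLC29A4, which encodes a nucleoside and monoamine transporter. Its normalized log2 signal was 9.74, 9.86 and 9.65 on pre-control arrays and 9.16, 9.35 and 9.29 on pre-miR-27a arrays, without overlap, a difference of −0.48 (SE 0.10, limma adjusted p = 0.0414). It was the only called gene of the 13 measured genes of nucleotide release and nucleoside transport (7.69%, against 7.83% of all probes kept). The median of this list was 0.06. Dimmer probes of this list were also called, LRRC8A higher by 0.41 (limma adjusted p = 0.0382) and SLC29A3 lower by 0.69 (log2 difference −0.69, limma adjusted p = 0.0357). None of the 16 measured ectonucleotidases and adenosine enzymes passed the test (0 calls, 4 at an unadjusted p under 0.05), 3 differences were above 0 and 13 below, and the median was −0.10. The gene counted there as ALPL was matched by the synonym TNAP, on a probe that the files place on chromosome 13. It is probably another gene. Its difference was −0.15 (SE 0.32, limma adjusted p = 0.827), and the counts and median of this list include it. ENTPD2, which removes phosphate from extracellular ATP, differed by −0.47 (SE 0.10, limma adjusted p = 0.0517). Under other processing settings it was called lower in 6 and not called in 8.

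Among the other receptors, none of the 5 measured P2X channels, the ATP-gated ion channels, passed the test (0 calls, 2 at an unadjusted p under 0.05), with a median of −0.32. P2RX3 had signals of 6.05, 6.55 and 6.38 against 5.79, 5.89 and 5.90, a difference of −0.47 (SE 0.14, limma adjusted p = 0.112). P2RX2 had the opposite sign, a difference of 0.38 (SE 0.13, limma adjusted p = 0.146) with no overlap, and is named after its values were seen. Of the adenosine receptors ADORA2A differed by −0.34 (SE 0.12, limma adjusted p = 0.145) on its brighter probe and by 0.20 (SE 0.10, limma adjusted p = 0.285) on its dimmer one, ADORA2B by −0.22 (SE 0.26, limma adjusted p = 0.662), and ADORA3 was well above background on no array. The 7 measured P2Y-related receptors had 0 calls (0 at an unadjusted p under 0.05), and LPAR6, named P2RY5 in the files, was the only one well above background on all 6 arrays, with a difference of −0.11 (SE 0.25, limma adjusted p = 0.835).

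Most genes of the coupling machinery downstream of the receptors were measured. Of the 14 genes for Gq, phospholipase C beta, IP3 receptors and protein kinase C, 11 were well above background on all 6 arrays, none passed the test (0 calls, 5 at an unadjusted p under 0.05) and the median was −0.05. PLCB3, a phospholipase C gene, differed by −0.48 (SE 0.17, limma adjusted p = 0.166). Of the 14 genes of Gi and Gs coupling 0 were called (3 at an unadjusted p under 0.05), 12 differences lay above 0 and 2 below, and the median was 0.12. The adenylyl cyclase gene ADCY7 differed by 0.37 (SE 0.10, limma adjusted p = 0.0800). Of the 12 receptor kinases, arrestins and scaffolds 0 were called (1 at an unadjusted p under 0.05), and GRK6, a receptor kinase gene, differed by −0.30 (SE 0.08, limma adjusted p = 0.0835). A dimmer probe of another receptor kinase, ADRBK1, was called lower at −1.11 (limma adjusted p = 0.0230).

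**Figure D4:**
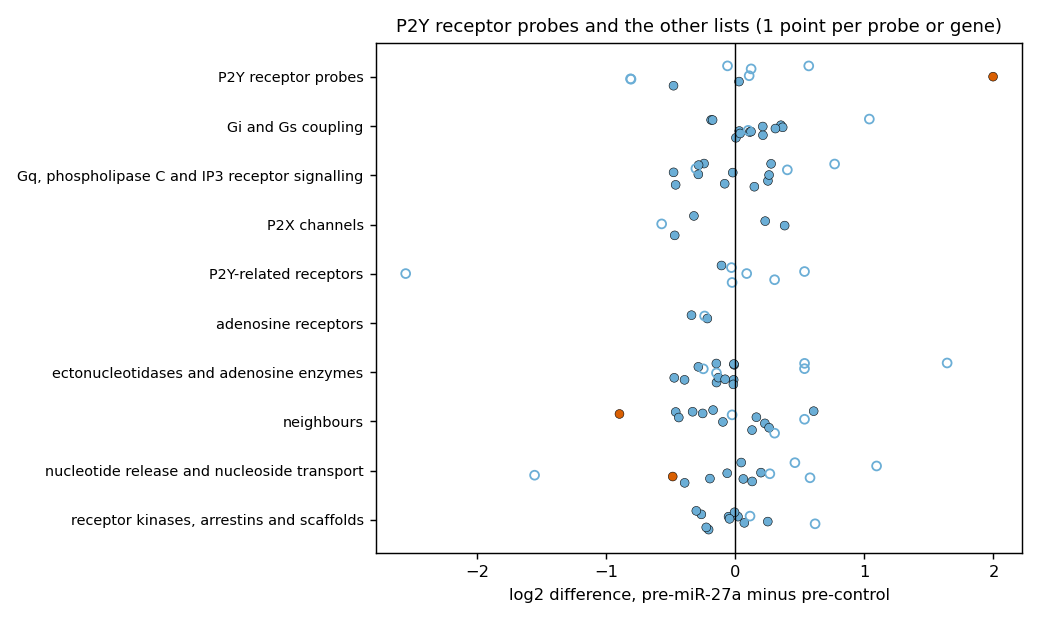
Log2 difference between pre-miR-27a and pre-control arrays (x axis) for the 9 P2Y receptor probes and for the genes of each list (y axis), 1 point a probe or gene, spread vertically for legibility. Filled points were well above background on all 6 arrays, open points were not, and orange points passed the adjusted p; the P2RY1 point at 2.00 lies to the right of all genes in the lists.

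When same-numbered arrays were compared as pairs, more of these genes passed. With the replicate number as a block 5421 probes were called (14.9%), the receptor count stayed at 1, and in the 8 lists 3 genes were called higher and 6 lower, named here after their values were seen. Higher were ADCY3 (0.35) and ENPP2 (0.54), and lower were ADORA2A (−0.34), ENTPD2 (−0.47), AK1 (−0.39), SLC29A4 (−0.48) and GRK6 (−0.30), as log2 differences by the brightest probe. The limma adjusted p of all 9 lay between 0.0363 and 0.0495 with the block. The other two calls, ENPP3 higher and OXGR1 lower, rest on probes not well above background in 1 group. ENPP3 had log2 signals of 2.30, 2.28 and 2.74 on pre-control arrays, none well above background, and 3.90, 3.31 and 5.02 on pre-miR-27a arrays, of which 1 was, so no fold is given. OXGR1 had 6.56, 5.21 and 2.08 on pre-control arrays, of which 2 were well above background, and 2.09 and 2.03 on pre-miR-27a replicates 1 and 2, neither well above it, with replicate 3 missing. As a bound on the group means, over 3 pre-control and 2 pre-miR-27a arrays, OXGR1 was at least 1.89-fold lower. This does not hold for pre-control replicate 3 alone, which was no higher than pre-miR-27a replicate 1. The pair of replicate 3 does not enter the blocked fit, and without the block the groups of OXGR1 overlapped (limma adjusted p = 0.338).

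The labelled cell type was checked against its markers. Of 8 skeletal myogenic genes 7 were kept, and all 7 were well above background on all 6 arrays, MYOD1, MYOG and DES among them. By their brightest probes 0 were called (3 at an unadjusted p under 0.05), all 7 differences lay below 0 with a median of −0.25, and the summed linear signal was 253965 to 318547 in pre-control and 221753 to 273705 in pre-miR-27a cells. The myogenic regulator genes MYOG and MYOD1 differed by −0.95 (SE 0.32, limma adjusted p = 0.140) and −0.45 (SE 0.12, limma adjusted p = 0.0787), a second MYOG probe differed by −0.96 (limma adjusted p = 0.0920), and a dimmer probe of CHRNA1 was called higher by 0.95 (limma adjusted p = 0.0216). Marker genes of cells in which P2Y receptors are best known were looked at as well. Of 7 platelet or megakaryocyte markers 4 were well above background on all 6 arrays, and PPBP was on none. GP9 was called lower (1 call, 14.3%, against 7.83% of all probes kept). The summed linear signal of the list was 3002 to 3281 in pre-control and 2130 to 2312 in pre-miR-27a cells. GP9 alone made 88.8% to 91.9% of that sum, and without it the sums were 242 to 318 and 199 to 244, which overlap. By brightest probes 1 platelet difference lay above 0, GP6 at 0.08 (limma adjusted p = 0.626), and 6 below. GP1BA differed by −0.61 (SE 0.26, limma adjusted p = 0.223) on its brighter probe, well above background on all 6 arrays. A dimmer GP1BA probe, well above background on 0 pre-control and 3 pre-miR-27a arrays, was at least 1.08-fold higher (limma adjusted p = 0.172). Its pre-miR-27a values, 4.64 to 4.99, lay below the dimmest signal well above background on pre-control replicate 2, 5.01. Of 7 macrophage or microglia markers 3 were well above background on all 6 arrays, and CSF1R, AIF1 and PTPRC were on none. By brightest probes 2 differences lay above 0 and 5 below. CD14, CSF1R and TYROBP were called lower (3 calls, 42.9%, against 7.83% of all probes kept). CX3CR1, named after its values were seen, differed by 1.48 (SE 0.54, limma adjusted p = 0.189), without overlap. It was well above background on 1 pre-control and 2 pre-miR-27a arrays. The summed signal of the list was 443 to 483 against 295 to 365. CD14 made 27.5% to 41.1% of it, and without CD14 the sums were 261 to 290 and 175 to 265, which overlap. Of 6 endothelial markers 2 were well above background on all 6 arrays, KDR, PECAM1 and TIE1 were on none, 0 were called (0 at an unadjusted p under 0.05), and the summed signal was 208 to 377 against 178 to 286. The macrophage sum with CD14, and the platelet sum with GP9, were lower in pre-miR-27a cells while P2RY1 was higher. Both groups are the same cell line, so these sums are signals of marker genes and no count of such cells. How they relate to the P2Y values was not tested. On bulk arrays a change in the mix of the line's cells and in RNA a cell cannot be told apart.

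The genes whose pattern over the 6 arrays was nearest to that of P2RY1 were found by the root mean square distance of log2 values, each probe centred on its own pre-control mean, among 18198 probes with a gene name and well above background on every array. They were ANKRD18A, which encodes an ankyrin repeat protein (distance 0.326), THAP6, a THAP domain gene (0.371), KIAA0367 (0.398), the mitotic kinesin gene KIF14 (0.434) and the cell junction gene CGNL1 (0.443). Their log2 differences were 1.84, 1.63, 1.89, 1.79 and 1.62, each below the 2.00 of P2RY1. This likeness is over 6 arrays on 2 slides that share the contrast by which P2RY1 was selected, and it is a description.

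**Figure D5:**
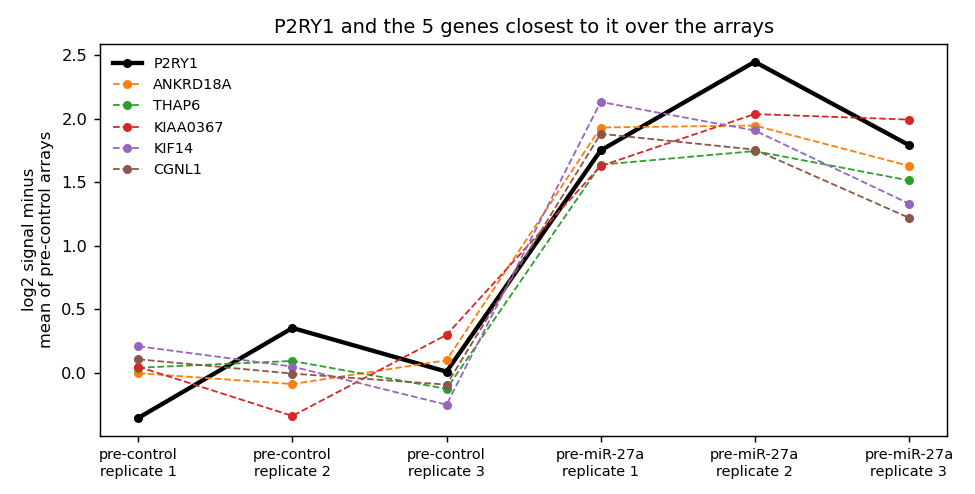
Log2 signal minus the mean of the pre-control arrays (y axis) on each array (x axis) for P2RY1 and the 5 genes nearest to it; lines only join the points of 1 gene, as replicates have no order. All 6 genes lie near 0 on the pre-control arrays and between 1.22 and 2.45 on the pre-miR-27a arrays, with P2RY1 the highest on pre-miR-27a replicate 2.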

How the data were processed

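Total RNA of RH36 cells was labelled with Cy3 and hybridized to whole genome oligonucleotide arrays. The authors deposited the spot intensity from Feature Extraction 10.5.1.1 (mean, local background, processed signal after background subtraction, quality flags), not normalized between arrays, and a table of log2 values with median 9.13 to 9.22 an array, of scale and direction as in the values computed here. Probe positions are on hg18. There was no per-sample column left unused (0 columns).

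Here control spots were dropped, the log2 processed intensities were brought to a common distribution by quantiles with no pseudocount, spots with the found flag at 0 were set to missing, spots of a probe were averaged, and probes missing on more than 1 array were removed. A probe counted as well above background when most of its spots carried that flag. Both groups were fitted with limma 3.58.1 (R 4.3.3, files read with version 1.17.8 of data.table) over all 36469 probes, and p-values were adjusted by Benjamini-Hochberg and called under 0.05. Exact permutation of 3 against 3 arrays cannot give a p below 0.1. The scripts were tested on simulated data. Figures were drawn with matplotlib 3.10.9.

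The members, lists and rule for named genes were chosen with earlier results of these data known. Named were all members, and in each list up to 3 called genes a direction with groups apart and the higher group well above background, or else the gene with the largest difference among those on all 6 arrays. For likeness 5 genes were named. Symbols were matched to RefSeq (GRCh38.p14) for 27745 of the 41000 probes.

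The labels number the replicates, and the numbers are also the positions on the slides. Deviations from the group means correlated at 0.40, 0.46 and 0.41 for same-numbered arrays and at −0.27 to −0.12 for others over 31717 probes, so the fit with the number as a block is given beside results whose calls it changes. All other values are from the fit without it. Alternatives were 75th percentile scaling, normexp correction (offset 50), other filters, the replicate block, the authors' log2 values, a variance trend with robust estimation, the mean of a gene's probes and leaving out each array.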

Additional observations from a re-analysis of the deposited data

How the results depend on the processing

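Most values kept their direction. With 75th percentile scaling, which moved the median of all probes from −0.02 to −0.09 and the share of called probes that were higher from 50.4% to 39.2%, 2 receptor probes were called, P2RY1 and P2RY14. The P2RY14 difference was −0.69 there, on substitute signals, against 0.11. With normexp correction P2RY1 was 1.44 and P2RY4 −0.26. Other purinergic genes called lower numbered 2 with 75th percentile scaling, with normexp, with a filter on probes well above background on at least 3 arrays, with the deposited log2 values, with a variance trend, with the mean of a gene's probes, and with spots filtered on the positive and significant flag, an alternative chosen after seeing the data. ENTPD2 was called lower with normexp (limma adjusted p = 0.0168) and with the deposited log2 values (limma adjusted p = 0.0466). With 75th percentile scaling it was not called (limma adjusted p = 0.0537). Neighbouring genes called lower numbered 3 with 75th percentile scaling and with normexp and 2 with a variance trend. With the replicate block, which pairs the arrays, 5421 probes, 3 higher and 6 lower purinergic genes and 2 lower neighbours were called. The block added or removed no receptor call, but it changed the standard errors. P2RY1 was 2.00 (SE 0.09 with the block, 0.26 without) and P2RY11 0.03 (SE 0.05 with, 0.11 without). P2RY4 was −0.36 (SE 0.07) with the block and −0.48 (SE 0.15) without. The dim P2RY12 was −0.81 (SE 0.15 with, 0.57 without). Leaving out each array gave 1.76 to 2.17 for P2RY1, −0.55 to −0.36 for P2RY4, −0.04 to 0.09 for P2RY11, 0 to 1 receptor probes, 0 to 1195 of all probes (1195 without pre-control replicate 1), 0 purinergic genes and 0 neighbours called. Without an array ANGPTL6 and SLC29A4 kept their direction but not their call. LPAR6 ranged from −0.24 without pre-miR-27a replicate 2 to 0.091 without pre-control replicate 1, and was 0.088 without pre-miR-27a replicate 1. The cause was not tested. Signal over background limits 6 of the 9 receptor probes, whose differences rest on dim or substitute signals.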
